A study of Mus musculus with 6 samples.

Results

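The genes of DNA replication and of mitosis were followed in the RNA of mouse hearts 3 days after myocardial infarction (MI). The set held 55 genes, 27 of replication and 28 of mitosis, chosen by name and matched by their current symbols to NCBI gene numbers, out of 17441 genes listed in any library. Each class was read by the roles of its members, and the replication class was set against the mitosis class. All 55 were listed, and all passed the filter on low values (2 or more libraries with FPKM of 1 or above). In both WT Sham libraries that level was reached by 16 replication and 8 mitosis genes, so many members passed through their MI libraries, where they are higher.

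The samples were male mice aged 12 weeks by their labels, on a C57BL/6 background. WT MI hearts had the left anterior descending coronary artery tied off, WT Sham hearts had the same operation without the ligation, and Card9 KO MI hearts came from mice with a whole-body knockout of *Card9*, an adaptor of innate immune signalling, after the same ligation. Tissue below the ligature was taken, so the libraries hold RNA of all cells there, and each group had 2 libraries. No Card9 KO sham heart was analysed here, so the genotype is seen only in infarcted tissue. The labels number the replicates and do not say which animals gave them, so the p-values below measure the spread between these libraries.

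The libraries listed 14935 to 15852 genes each, from an estimated 3017500 to 4305000 fragments. FPKM counts fragments per length of transcript and per total of the library, and at these depths a level of 0.348 to 0.497 stands for 3 fragments if the transcript has 2 kb. *Card9* itself had FPKM values of 0.99 and 1.03 (WT Sham), 3.39 and 5.08 (WT MI) and 9.85 and 6.94 (Card9 KO MI). It was thus not lower where the label says knockout, and every direction between the MI groups rests on those labels. Cardiomyocyte markers had the highest summed FPKM of the marker lists in each library, 57359 and 58538 in WT Sham and between 29276 and 35420 in the 4 MI libraries, and none of the 10 was at 0.

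A dividing cell copies its DNA once, in S phase, and later shares the copies between its daughters in mitosis. Before S phase the MCM helicase is loaded onto origins by Cdc6 and Cdt1. Polymerases, the sliding clamp Pcna and the enzymes that make deoxynucleotides then act while the DNA is copied, and many of these genes are driven by E2F factors. Genes of mitosis reach their peak later. Many of them are held off in resting cells and switched on before division through a promoter element called the cell cycle genes homology region (CHR), often with CCAAT boxes nearby, by complexes that include B-Myb and Foxm1. Adult cardiomyocytes rarely divide, and after an infarct the dividing cells of the heart are mostly macrophages, fibroblasts and endothelial cells.

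Promoter sequences showed how the classes differ before any level is read. RefSeq windows on GRCm38.p6, from 250 bases before to 50 bases after the start of the gene, were found for 46 members, 23 of each class. *Ccne2*, *Mcm4*, *Kif20a*, *Gins1*, *Tpx2*, *Foxm1*, *Aurkb*, *Ccna2* and *Gins2* had no entry. Both strands were searched for E2F sites (TTCCCGC or TTCGCGC or TTGGCGC or else TTGCCGC), for the CHR (TTTGAA or TTCGAA) and for the CCAAT box (CCAAT). Stretches from 3 replication genes and 3 mitosis genes are shown as examples, chosen after the search because each has matches in the 120 bases before the start. Each runs 5′ to 3′ on the strand of its gene and ends at the base before the start, and capitals mark matches on either strand. The first 3 sequences are of *Mcm6*, a subunit of the helicase (chr1:128359706-128359825, minus strand), *Rrm1*, the large subunit of ribonucleotide reductase (chr7:102441575-102441694, plus strand), and *Prim1*, the catalytic subunit of primase (chr10:128015095-128015214, plus strand).
Mcm6: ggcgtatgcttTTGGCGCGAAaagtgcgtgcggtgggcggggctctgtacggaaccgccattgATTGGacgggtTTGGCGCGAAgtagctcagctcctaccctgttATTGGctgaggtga
Rrm1: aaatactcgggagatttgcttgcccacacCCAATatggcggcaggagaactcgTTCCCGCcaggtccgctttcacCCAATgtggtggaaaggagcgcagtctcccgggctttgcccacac
Prim1: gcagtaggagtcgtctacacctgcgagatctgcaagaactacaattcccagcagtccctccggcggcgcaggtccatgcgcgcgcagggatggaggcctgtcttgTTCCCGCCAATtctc
The *Mcm6* stretch held 4 matches to an E2F site in 2 overlapping pairs, because its run TTGGCGCGAA matches on both strands. In *Prim1* the E2F site shares bases with a CCAAT box, with first bases 15 and 9 bases before the start. None of these 3 stretches held a CHR. The other 3 sequences are of *Cdk1*, the kinase that starts mitosis (chr10:69352913-69353032, minus strand), *Cdc20*, the activator of the anaphase-promoting complex (chr4:118437344-118437463, minus strand), and *Ube2c*, a ubiquitin-conjugating enzyme of that complex (chr2:164769809-164769928, plus strand).
Cdk1: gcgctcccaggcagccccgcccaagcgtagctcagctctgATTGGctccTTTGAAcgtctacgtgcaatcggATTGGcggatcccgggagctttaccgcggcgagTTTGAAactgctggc
Cdc20: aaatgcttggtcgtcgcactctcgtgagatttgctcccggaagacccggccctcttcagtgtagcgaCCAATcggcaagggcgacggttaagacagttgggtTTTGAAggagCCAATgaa
Ube2c: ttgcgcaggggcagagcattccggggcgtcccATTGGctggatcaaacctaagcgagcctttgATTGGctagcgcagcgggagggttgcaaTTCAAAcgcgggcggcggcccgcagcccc
A CHR began 71 and 15 bases before the start in *Cdk1*, 18 bases before it in *Cdc20* and 29 bases before it in *Ube2c*, and each stretch also held 2 CCAAT boxes. None of these stretches held an E2F site, but farther upstream the *Cdk1* window held 2, at 178 and 130 bases before the start, and it is among the mitosis genes counted with that site.

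Over all windows, 15 of the 23 replication genes (65.2%) and 4 of the 23 mitosis genes (17.4%) held an E2F site, against 13.7% of the 17491 protein-coding genes with windows of the same length. For the CHR the order was turned, with 5 replication genes (21.7%), 18 mitosis genes (78.3%) and 20.2% of all. A CCAAT box was in 60.9% of the replication windows, 82.6% of the mitosis windows and 42.3% of all. CHR and CCAAT box stood together in 17.4%, 73.9% and 9.24%. With a match seen from several starts of a gene counted once, from the nearest start, the 25 CHR matches of mitosis genes had their median 15 bases before the start, and 17 of them began no more than 60 bases before it or after it. A match here describes letters and is no evidence of binding in these hearts.

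**Figure D1:**
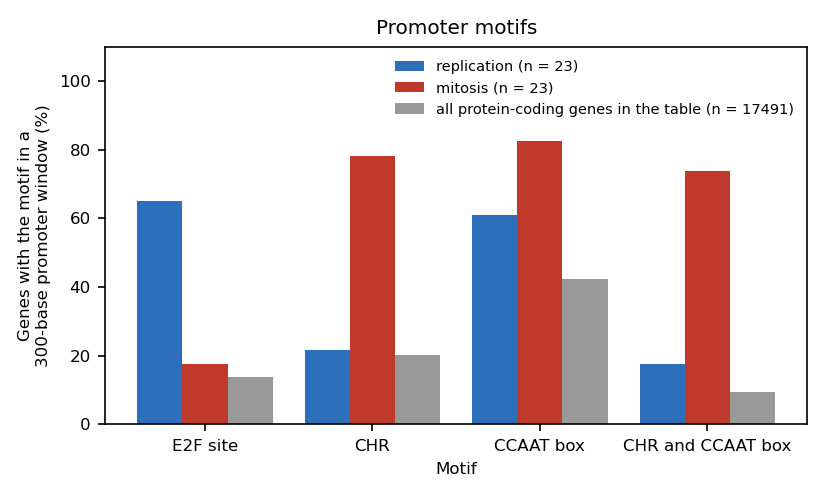
Share of genes with a motif in the 300-base window around the start (vertical axis, %), for the replication genes, the mitosis genes and all protein-coding genes with a window. E2F sites stand highest in the replication genes (65.2%) and the CHR in the mitosis genes (78.3%).

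In sham hearts both classes were low, with a few exceptions. The median FPKM of the replication genes was 1.84 and 1.58 in the pair of WT Sham libraries, and that of the mitosis genes 1.15 and 0.635. In the WT MI libraries the medians were 7.04 and 8.13 for replication and 5.91 and 6.56 for mitosis, while Card9 KO MI had 11.4 and 8.45 for replication and 11.2 and 9.67 for mitosis. Both WT Sham libraries lay under the level of 3 fragments on 2 kb for 2 of 27 replication genes and 6 of 28 mitosis genes, and *Ccnb2*, *Bub1b* and *Cenpe* were listed in only 1 of them. Fold changes against WT Sham are therefore given as log2 fold changes of FPKM + 1, which understate the change of low genes.

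**Figure D2:**
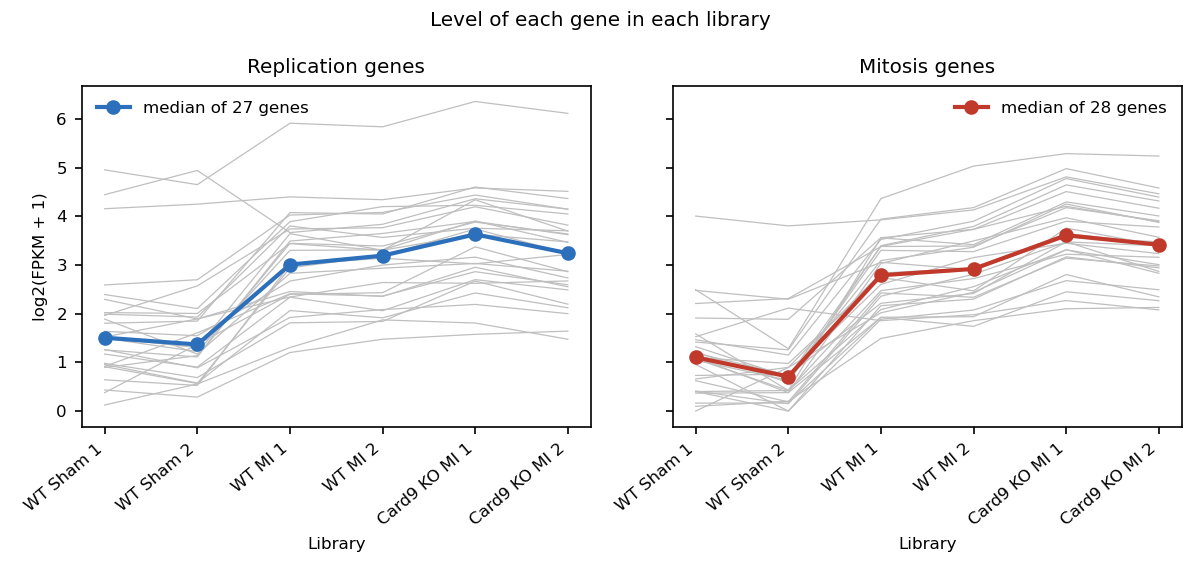
Level of each gene (thin lines) and the class median (thick line with points) as log2(FPKM + 1) in each of the 6 libraries, replication genes on the left and mitosis genes on the right. Medians are lowest in WT Sham, and the mitosis median is higher in both libraries labelled Card9 KO MI than in both WT MI libraries.

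WT MI hearts were compared with WT Sham hearts to ask which genes of the cycle are higher in the infarct. Of the replication genes 24 of 27 rose, and 1, *E2f1*, fell. Of the mitosis genes 26 of 28 rose and none fell. Over all 13120 genes tested, 27.7% were called higher and 9.39% lower (limma on log2(FPKM + 1), Benjamini-Hochberg adjusted p below 0.05). The median log2 fold change was 1.35 for replication and 1.88 for mitosis, against 0.19 for all genes tested. All WT MI libraries lay above all WT Sham libraries for 26 replication and 26 mitosis genes, against 48.3% of the genes tested, and below them for 1 member, *E2f1*, against 22.1%. A screen by fold change of at least 2 and probability of at least 0.8 called 13 replication and 14 mitosis genes higher, against 6.06% of the genes it read. In bulk tissue, more dividing cells and more of these transcripts in each cell cannot be told apart.

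The MCM helicase unwinds DNA at the fork, and its 6 subunits in the set all rose in WT MI, by log2 fold changes of 1.36 to 2.38. *Mcm5* (mm9, chr8:77633427-77652338, plus strand) had FPKM of 1.39 and 1.16 (WT Sham), 10.24 and 11.52 (WT MI) and 13.86 and 11.31 (Card9 KO MI). *Mcm6*, with the highest mean of the 6 in WT MI, had 2.49 and 2.6, then 15.85 and 15.52, then 23.26 and 19.58. Both were several times higher in every MI library than in either WT Sham library. The changes from WT Sham to WT MI were 2.38 (SE 0.16, adjusted p = 6.7e-05) for *Mcm5* and 2.23 (SE 0.14, adjusted p = 4.5e-05) for *Mcm6*. *Mcm2*, *Mcm3*, *Mcm4* and *Mcm7* had WT MI means of 9.35 to 15.6.

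Factors that license and fire origins were lower in FPKM than the helicase, and all 6 rose. *Cdt1*, which loads the helicase (mm9, chr8:125091915-125097028, plus strand), had FPKM of 0.56 and 0.44 (WT Sham), 7.04 and 7.8 (WT MI) and 7.13 and 8.29 (Card9 KO MI). Its log2 fold change of 2.49 in WT MI (SE 0.17, adjusted p = 6.6e-05) was the largest of the replication class. *Gins2*, a subunit of the GINS complex of the active helicase, had FPKM of 0.3 and 1.58 (WT Sham), 4.27 and 4.39 (WT MI) and 9.35 and 6.26 (Card9 KO MI), with the WT Sham libraries far apart. Its exons share 67.3% of their bases with *Gse1*, so its reads may not all be its own. *Gins1*, *Cdc45*, *Cdc6* and *Mcm10* rose by 0.98 to 1.25. Of the 6, *Cdt1* kept its call with each library left out. *Gins1*, *Gins2*, *Cdc45*, *Cdc6* and *Mcm10* lost theirs without WT MI replicate 2, and each also without another library, with adjusted p of up to 0.077 and log2 fold changes of no less than 0.78.

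Of the 7 genes that synthesise and join DNA, 6 rose. Among these, *Fen1* shares 78.8% of its exon bases with *Gm10143*. *Pola1*, at 0.93, passed the test in 13 of 16 alternative settings, with 0.74 to 1.12 when a library was left out. *Pcna*, the clamp that holds polymerases on DNA (mm9, chr2:132074898-132079050, minus strand), was the most abundant member in the MI libraries, with FPKM of 29.95 and 24.09 (WT Sham), 59.14 and 56.12 (WT MI) and 80.92 and 68.18 (Card9 KO MI). Its 3 groups did not overlap, and it rose by 1.07 (SE 0.13, adjusted p = 0.00082) from WT Sham to WT MI. *Lig1*, which seals the fragments of the lagging strand, rose by 1.95 (SE 0.19, adjusted p = 0.0003). *Rfc4*, a subunit of the clamp loader, was at 3.9 and 2.71 (WT Sham) and 4.07 and 5.23 (WT MI) and did not pass the test (adjusted p = 0.16), and 12.6% of its exon bases are shared with *Eif4a2*.

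The genes of deoxynucleotide supply split. *Rrm2*, the small subunit of ribonucleotide reductase and its limiting part in S phase (mm9, chr12:25393106-25399011, plus strand), had FPKM of 0.86 and 1.2 (WT Sham), 9.88 and 9.47 (WT MI) and 13.72 and 11.43 (Card9 KO MI). It rose by 2.40 (SE 0.17, adjusted p = 7.1e-05) in WT MI. *Tk1*, a thymidine kinase of S phase, had 1.84 and 1.47, then 11.49 and 8.86, then 19.23 and 11.95. *Tyms*, which makes thymidylate, was at 16.81 and 18 (WT Sham), 20.07 and 19.24 (WT MI) and 22.93 and 21.8 (Card9 KO MI). It was thus high in sham hearts already. Its log2 fold change in WT MI was 0.17 (SE 0.11, adjusted p = 0.27), and turned to -0.04 under upper-quartile scaling and quantile normalization.

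*E2f1*, an activator of genes of S phase, was the member that went against its class. It had FPKM of 20.75 and 29.7 (WT Sham), 11.68 and 13.27 (WT MI) and 19.53 and 16.69 (Card9 KO MI) (mm9, chr2:154385143-154395628, minus strand). Both WT Sham libraries were the highest of the 6 and both WT MI libraries the lowest. It fell by 0.94 on the log2 scale (SE 0.18, adjusted p = 0.0054) from WT Sham to WT MI and passed the test in all 17 alternative settings of the fit. From WT MI to Card9 KO MI its log2 fold change was 0.50 (SE 0.18, adjusted p = 0.18). The other genes of entry into S phase, *Uhrf1*, *Ccne1* and *Ccne2*, rose by 0.70 to 2.33 in WT MI. *Ccne2*, 17.4% of whose exon bases are shared with *Ints8*, passed in 8 of 16 alternative settings, and missed the threshold without WT Sham replicate 1 (0.51) or either WT MI replicate (0.65 and 0.75). *Uhrf1*, which guides maintenance methylation of new DNA, was at 0.88 and 0.48 (WT Sham) and 6.68 and 8.13 (WT MI).

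Among the mitosis genes, the cyclins, *Cdk1* and *Foxm1* all rose, by a median of 2.30. *Ccna2*, the cyclin A of dividing cells (mm9, chr3:36463788-36471072, minus strand), had FPKM of 1.67 and 1.39 (WT Sham), 14.36 and 17.09 (WT MI) and 30.5 and 22.91 (Card9 KO MI). Its 3 groups did not overlap, and it rose by 2.72 (SE 0.18, adjusted p = 5.4e-05) in WT MI. Of its exon bases 14.6% are shared with *Exosc9*. *Cdk1* (mm9, chr10:68799383-68815686, minus strand) had 0.33 and 0.11, then 4.13 and 6.01, then 10.1 and 9.51. *Foxm1*, a transcription factor of mitotic genes (mm9, chr6:128312985-128325911, plus strand), had 1.14 and 0.97, then 5.69 and 4.53, then 12.52 and 9.55, and rose by 1.57 (SE 0.19, adjusted p = 0.00076) in WT MI. The B-type cyclins were nearly absent in sham hearts, with *Ccnb2* listed in only 1 WT Sham library at 0.86 and at 6.13 and 6.64 in WT MI.

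Genes of mitotic chromosomes and of the mitotic kinases showed the same order of groups. *Mki67*, which encodes the proliferation marker Ki-67 on the chromosome surface (mm9, chr7:142881471-142908062, minus strand), had FPKM of 1.76 and 1.22 (WT Sham), 10.5 and 13.9 (WT MI) and 26.35 and 20.01 (Card9 KO MI). The group means were 1.49 ± 0.382, 12.2 ± 2.40 and 23.2 ± 4.48 (SD, n = 2 each). *Birc5*, the survivin subunit of the Aurora B complex (mm9, chr11:117710565-117717069, plus strand), had 1.32 and 0.5, then 9.53 and 12.84, then 23.99 and 18.88. Neither gene's groups overlapped. In WT MI *Mki67* rose by 2.40 (SE 0.20, adjusted p = 0.00016) and *Birc5* by 2.69 (SE 0.25, adjusted p = 0.00021). *Top2a*, *Aurka*, *Aurkb* and *Plk1* rose by 2.13 to 2.54.

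The spindle checkpoint delays anaphase until every chromosome is attached, and its 6 genes and targets all rose in WT MI, by 1.52 to 2.81. *Ube2c* (mm9, chr2:164595398-164604322, plus strand) had the largest change of the mitosis class and wide replicates, with FPKM of 4.62 and 1.43 (WT Sham), 19.57 and 31.66 (WT MI) and 38.01 and 36.69 (Card9 KO MI). It rose by 2.81 (SE 0.37, adjusted p = 0.001), and 22.8% of its exon bases are shared with *Tnnc2*, a troponin gene. *Cdc20* had 1.06 and 0.55, then 8.85 and 8.67, then 13.9 and 12.72. *Mad2l1*, which holds Cdc20 back until attachment, had 2.76 and 2.69, then 10.79 and 12.28, then 17.43 and 13.79. All 3 genes were lowest in both WT Sham libraries.

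Spindle motors and midzone proteins, 7 genes, rose by 0.59 to 2.48. *Prc1*, which bundles the microtubules of the midzone and had the highest WT MI mean of this group, had FPKM of 2 and 0.34 (WT Sham), 10.76 and 9.68 (WT MI) and 18.62 and 15.06 (Card9 KO MI). *Kif11*, the motor that pushes spindle poles apart (mm9, chr19:37450893-37496349, plus strand), had 0.58 and 0.86, then 3.05 and 4.42, then 8.92 and 7.03. Both genes were higher in each MI library than in each WT Sham library, and *Kif11* rose by 1.45 (SE 0.22, adjusted p = 0.002). The smallest rise of the group, 0.59 (SE 0.15, adjusted p = 0.017), was that of *Hmmr*, a hyaluronan receptor also found on the spindle. It lost its call without WT Sham replicate 2 (0.50) and without WT MI replicate 1 (0.52).

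Of the 4 genes of centromere and kinetochore, *Ndc80* and *Cenpe* rose and the other two did not pass the test. *Cenpa*, the histone variant of centromeres (mm9, chr5:30969150-30977200, plus strand), had FPKM of 15.04 and 12.95 (WT Sham), 14.19 and 16.51 (WT MI) and 27.01 and 21.01 (Card9 KO MI). WT Sham and WT MI overlapped, with a log2 fold change of 0.12 (SE 0.16, adjusted p = 0.57), while both Card9 KO MI libraries were above the other 4. *Cenpf*, a large protein of the outer kinetochore, was at 1.88 and 3.33 (WT Sham), 2.62 and 2.94 (WT MI) and 3.82 and 3.22 (Card9 KO MI), with a change in WT MI of 0.10 (SE 0.23, adjusted p = 0.78). Both changes turned below 0 under upper-quartile scaling, under quantile normalization and with scaling to totals that leave out the 100 most abundant genes.

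**Figure D3:**
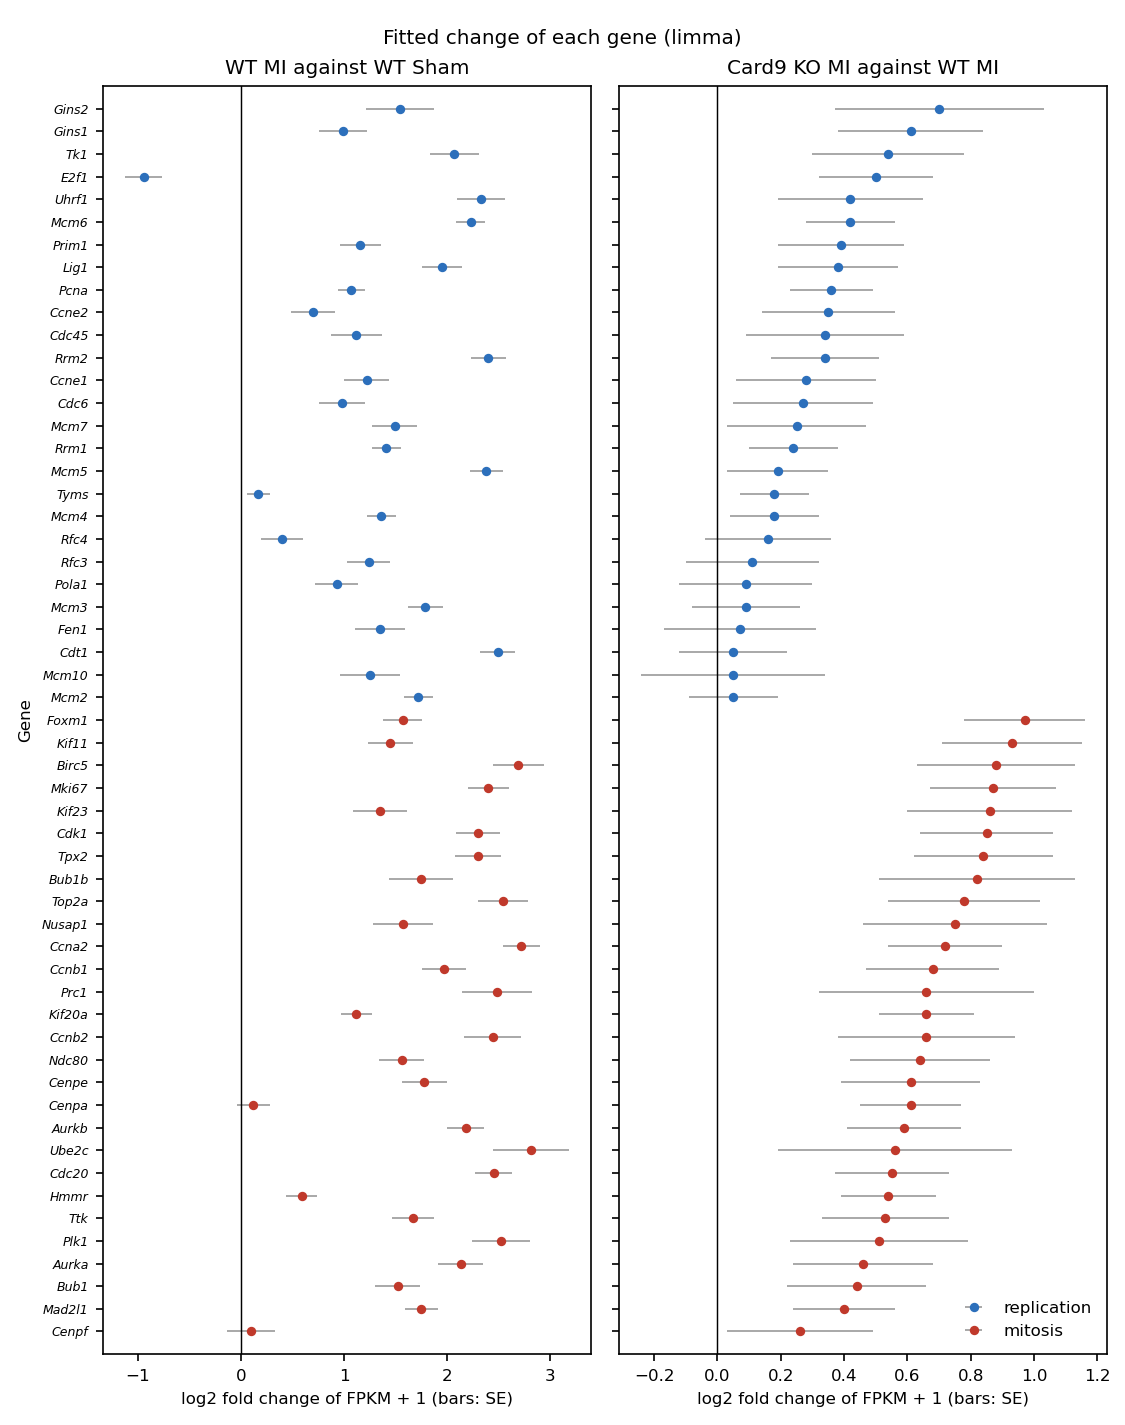
Fitted log2 fold change of FPKM + 1 of each gene (points, coloured by class) with its standard error (bars), for WT MI against WT Sham on the left and Card9 KO MI against WT MI on the right. On the left *E2f1* alone lies below 0, and on the right the mitosis genes lie mostly to the right of the replication genes.

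The libraries labelled Card9 KO MI were compared with WT MI to ask which genes of the cycle differ between the genotypes in infarcted tissue. Without a Card9 KO sham heart, a changed response to the infarct and a difference present before it cannot be told apart. No member passed the test, with 0 of 27 replication and 0 of 28 mitosis genes called higher (limma), against 0.816% of the genes tested. Unadjusted p was below 0.05, with higher values in Card9 KO MI, for 4 replication and 21 mitosis genes, against 11.5% of the genes tested, and the screen called 0 of each class, against 0.728% of the genes it read. The median log2 fold change was 0.27 for replication (range 0.05 to 0.70) and 0.66 for mitosis (range 0.26 to 0.97), against 0.04 for all genes tested. Both Card9 KO MI libraries lay above both WT MI libraries for 18 of 27 replication and 28 of 28 mitosis genes, against 30.8% of the genes tested. All 55 members had a value above 0, against 56.3% of the genes tested. Members moved together between libraries, with Card9 KO MI replicate 1 above replicate 2 for 24 of 27 replication and 27 of 28 mitosis genes. Counts over members, here and against WT Sham, therefore do not stand for separate observations. As this comparison shares the WT MI libraries with the one against WT Sham, the values are given for each on its own.

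The classes separated in the size of this difference. In means of FPKM, Card9 KO MI was 1.29 times WT MI at the median of the replication genes and 1.68 times at the median of the mitosis genes. With the 55 members ranked by that ratio, 9 of the first 10 and 18 of the first 20 were mitosis genes. A ratio of at least 1.5 was reached by 3 replication genes, *Gins2* (1.80), *Gins1* (1.76) and *Tk1* (1.53), and by 23 of 28 mitosis genes. *Foxm1* (2.16), *Kif11* (2.13) and *Kif23* (2.06) passed 2. At the low end of the mitosis class were *Aurka* (1.41), *Mad2l1* (1.35) and *Cenpf* (1.27). The classes were chosen with such values known, so the split is a description with no test.

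*Foxm1* had the largest fitted difference between the MI groups, 0.97 (SE 0.19, adjusted p = 0.059, with 0.042 to 0.28 over the alternatives). It missed the threshold, and passed it in 2 of 17 alternative settings. *Kif11* followed at 0.93 (SE 0.22, adjusted p = 0.089) and *Birc5* at 0.88 (SE 0.25, adjusted p = 0.12), with *Mki67* at 0.87 (SE 0.20, adjusted p = 0.085). For these 4 genes the lower Card9 KO MI library stood above the higher WT MI library. *Cenpf*, at 0.26 (SE 0.23, adjusted p = 0.59), and *Mad2l1*, at 0.40 (SE 0.16, adjusted p = 0.21), had the smallest values of the mitosis class. Their libraries did not overlap either.

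In the replication class the largest fitted differences between the MI groups were those of *Gins2*, 0.70 (SE 0.33, adjusted p = 0.29), *Gins1*, 0.61 (SE 0.23, adjusted p = 0.20), and *Tk1*, 0.54 (SE 0.24, adjusted p = 0.25). *Gins1* had FPKM of 0.97 and 0.61 (WT Sham), 2.51 and 2.58 (WT MI) and 5.36 and 3.58 (Card9 KO MI). At the other end, *Cdt1*, *Mcm2* and *Mcm10* were each at 0.05, with adjusted p of 0.91, 0.90 and 0.94. *Mcm2* had 2.97 and 2.81 (WT Sham), 12.93 and 10.83 (WT MI) and 12.49 and 12.01 (Card9 KO MI). *Mcm10*, which helps to fire origins, had 0.09 and 0.47, then 1.47 and 2.66, then 2.5 and 1.78. The MI libraries of *Cdt1*, *Mcm2* and *Mcm10* overlapped, and the sign of each turned in some settings.

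Class sums showed the same shift from library to library. The 28 mitosis genes summed to FPKM of 51.9 and 39.4 (WT Sham), 195 and 237 (WT MI) and 397 and 324 (Card9 KO MI). The 27 replication genes summed to 112 and 116, then 269 and 272, then 372 and 307. The mitosis sum was 0.462 and 0.340 of the replication sum in WT Sham, 0.727 and 0.870 of it in WT MI, and 1.07 and 1.06 of it in Card9 KO MI. The ratio did not overlap between the 3 groups. Abundant members weigh most in such sums. Without *Pcna*, *Tyms*, *E2f1* and *Cenpa* (a choice made after seeing the data) the ratios were 0.822 and 0.602, 1.02 and 1.20, and 1.49 and 1.51. These 4 are not simply the most abundant members, as *Ube2c* was kept with a WT MI mean of 25.62, against 15.35 for *Cenpa*. In WT MI *E2f1* fell, and *Tyms* and *Cenpa* did not pass the test.

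**Figure D4:**
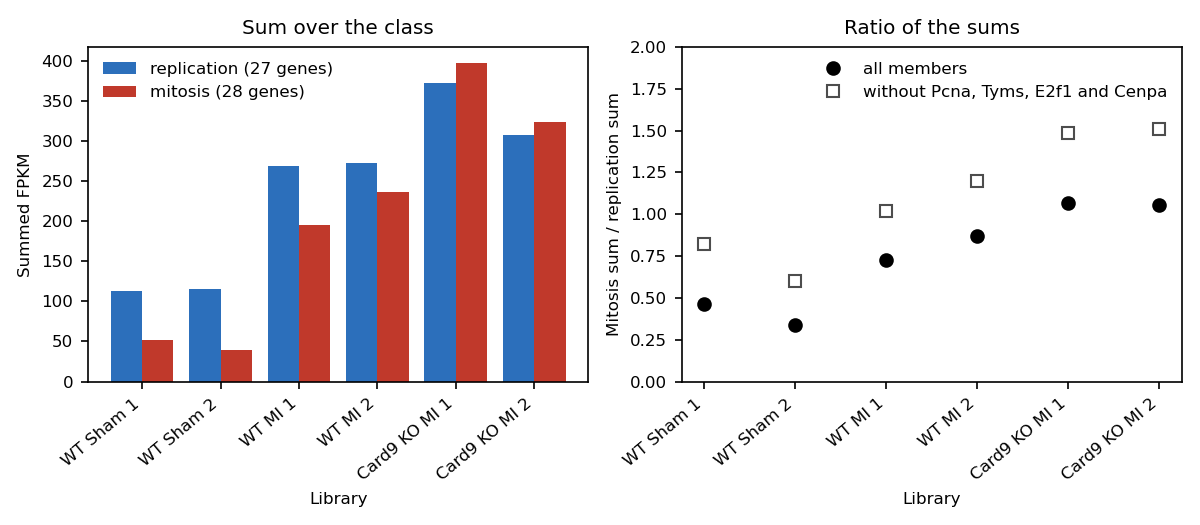
Summed FPKM of each class in the 6 libraries (bars, left) and the mitosis sum divided by the replication sum (right). Filled circles hold all members, and open squares leave out *Pcna*, *Tyms*, *E2f1* and *Cenpa*. For all members the ratio goes from 0.340 and 0.462 in WT Sham to 1.06 and 1.07 in Card9 KO MI.

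The libraries within a group also differed. In WT Sham replicate 1 was above replicate 2 for 17 replication and 19 mitosis genes. The median differences, replicate 1 minus replicate 2 in log2(FPKM + 1), were 0.12 and 0.23, against 0.01 for all genes tested. In WT MI replicate 2 was the higher for 16 and 22 genes, with medians of -0.03 and -0.20, against 0.0. Card9 KO MI replicate 1 was above replicate 2 for 24 of 27 replication and 27 of 28 mitosis genes, by medians of 0.24 and 0.28 on the log2(FPKM + 1) scale, against 0.05 for all genes tested. Between the closest pair of libraries, Card9 KO MI replicate 2 and WT MI replicate 2, the mitosis genes had a median FPKM ratio of 1.45 with 28 of 28 higher in Card9 KO MI, and the replication genes 1.13 with 21 of 27 higher. Between the replicates numbered 1 the ratios were 1.98 and 1.39. Without Card9 KO MI replicate 1 the fitted median was 0.15 for replication and 0.52 for mitosis, and without WT MI replicate 1 it was 0.25 and 0.61. Without Card9 KO MI replicate 2 it was 0.44 and 0.79.

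Against WT Sham, the libraries labelled Card9 KO MI had 25 of 27 replication and 27 of 28 mitosis genes higher, against 34.8% of the genes tested, and the screen called 14 and 24, against 8.55%. Here the genotype and the infarct cannot be told apart, and the WT Sham libraries are those of the comparison above. The median log2 fold change was 1.56 and 2.58, against 0.24 for all genes tested. *Cenpa* (0.73, adjusted p = 0.0064) passed the test here, and so did *Tyms* (0.34, adjusted p = 0.032), which missed it when any of the 6 libraries was left out (0.30 to 0.39). *E2f1* (-0.44, adjusted p = 0.076), *Rfc4* (0.56, adjusted p = 0.05 after rounding, not called) and *Cenpf* (0.35, adjusted p = 0.24) did not, and *E2f1* was called lower without WT Sham replicate 1 (-0.69) and under 3 other scalings.

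Promoter letters were also read against the size of the change within each class. Among the mitosis genes with a window, the median difference between Card9 KO MI and WT MI was 0.62 for the 18 with a CHR and 0.68 for the 5 without. Among the replication genes it was 0.24 for the 15 with an E2F site and 0.31 for the 8 without. From WT Sham to WT MI the medians were 1.94 and 1.78 for the CHR in mitosis genes and 1.49 and 1.17 for the E2F site in replication genes. Between the MI groups, replication genes had a median of 0.11 with a CHR (5 genes) and 0.28 without (18 genes). Mitosis genes had 0.76 with an E2F site (4 genes) and 0.61 without (19 genes). Within a class the medians with and without a motif lay closer together than those of the classes, 0.27 and 0.66. Over both classes the median between the MI groups was 0.55 with a CHR and 0.36 without. It was 0.27 with an E2F site and 0.54 without. The genes with a CHR were 18 mitosis and 5 replication genes, so motif and class are largely the same split. Some of these groups are small, and no test was run.

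Further genes of the same processes were counted from lists set by function. Of 35 other replication genes 34 were tested (*Orc1* was filtered), and in WT MI 18 rose and none fell, with a median of 0.61, against 27.7% higher, 9.39% lower and a median of 0.19 over all genes tested. *Dbf4*, the activator of the kinase that fires origins, rose by 1.73, *Clspn* by 1.44 and *Chaf1b*, of the chromatin assembly factor, by 1.42 (1.33 and not called without WT MI replicate 2). Of 45 other mitosis genes 44 were tested (*Kif14* was filtered), and 41 rose and 1 fell, with a median of 1.45. *Cks2* rose by 3.40 and *Cks1b* by 2.83, both partners of Cdk kinases, and the motor *Kif22* by 2.55. *Pttg1*, which encodes securin, the inhibitor of separase, was at 111.8 and 109.85 (WT Sham), 83.97 and 74.74 (WT MI) and 51.96 and 67.18 (Card9 KO MI), and fell by 0.48 in WT MI (SE 0.13, adjusted p = 0.025). That call was lost when either WT Sham or either WT MI library was left out (-0.56 to -0.40).

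Between the MI groups these lists had medians of 0.20 for other replication and 0.67 for other mitosis genes, with 24 of 34 and 43 of 44 above 0, against 56.3% of the genes tested. *Smc4*, a subunit of condensin, passed the test. It had FPKM of 4.81 and 5.34 (WT Sham), 13.62 and 14.13 (WT MI) and 23.52 and 22.58 (Card9 KO MI), a difference of 0.69 between the MI groups (SE 0.12, adjusted p = 0.047). It passed in 5 of 17 alternative settings and in none that left out a library, with differences of 0.57 to 0.73 throughout. *Gmnn*, which encodes geminin, the inhibitor of Cdt1, had 22.35 and 23.31 (WT Sham), 20.52 and 22.4 (WT MI) and 12.37 and 14.63 (Card9 KO MI). Its difference of -0.63 (SE 0.12, adjusted p = 0.058) missed the threshold, which it passed in 3 of 17 alternative settings, and both Card9 KO MI libraries were below the other 4. *Gmnn* was singled out after its values were seen.

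Cyclins and kinases of the first gap phase, brakes on the cycle and other E2F factors had medians of 0.61, 0.31 and 0.49 in WT MI, where 27.7% of the genes tested were called higher and 9.39% lower. Of 6 cyclins and kinases 5 rose, *Cdk4* by 0.92, *Cdk6* by 0.86 and *Ccnd1* by 0.67 among them, and *Ccnd2* fell by 0.47. Of 12 brakes 4 rose and 2 fell, shares near those of all genes. *Btg1* rose by 1.03, *Cdkn2d* by 0.91, *Wee1* by 0.90 and *Cdkn1a*, which encodes p21, by 0.47. *Cdkn1c*, which encodes the inhibitor p57, fell by 1.35, with FPKM of 14.39 and 14.84 (WT Sham) and 5.3 and 4.99 (WT MI), and *Rbl2* fell by 0.58. Of 7 other E2F factors 4 rose, *E2f8* by 1.25 and *E2f2* by 1.07 among them, and *E2f6* fell by 0.58. When a WT Sham or WT MI library was left out, *Cdk6*, *Cdkn1a*, *Rbl2*, *E2f2* and *E2f6* lost their calls for 2 or 3 of the 4, and *Ccnd2* and *Cdkn2d* for 1. None of these 3 lists had a member called between the MI groups by limma.

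Markers of the cells in the tissue moved with the groups too. The 15 macrophage markers summed to FPKM of 434 and 373 (WT Sham), 1487 and 1894 (WT MI) and 3009 and 2190 (Card9 KO MI). The 11 fibroblast markers summed to 563 and 542, 1556 and 2077, and 3286 and 3152. Abundant genes weigh most in these sums. The median FPKM of the macrophage list was 6.99 and 4.8 (WT Sham), 20.12 and 23.2 (WT MI) and 30.86 and 22.6 (Card9 KO MI). For the fibroblast list it was 24.64 and 23.52, then 42.2 and 57.82, then 56.75 and 64.13. Both medians thus overlapped between the MI groups. In WT MI 14 of 15 macrophage and 9 of 11 fibroblast markers rose, against 27.7% of the genes tested. Between the MI groups 1 and 3 were called higher, against 0.816%, with medians of 0.59 and 0.52. *Cd163* (-1.03), *Pdgfra* (-0.52) and *Dcn* (-0.16) lay below 0 there, and none of them was called. The 10 endothelial markers summed to 389.9 and 379.0 (WT Sham), 401.6 and 402.5 (WT MI) and 476.6 and 456.8 (Card9 KO MI). In WT MI 2 of them were called higher and 1 lower, against 27.7% and 9.39% of the genes tested. Between the MI groups 9 of the 10 lay above 0, against 56.3% of the genes tested, with a median of 0.16 and none called. Of the 10 cardiomyocyte markers 7 fell in WT MI, against 9.39% of the genes tested, with a median of -0.64, and *Nppa* rose by 2.31. Between the MI groups 2 of the 10 lay above 0, against 56.3% of the genes tested, with a median of -0.17 and none called. *Nppa* was at 1.13 there. The neutrophil markers, 8 of 11 listed, summed to 7.64 and 5.40 (WT Sham), 212 and 93.1 (WT MI) and 59.9 and 46.7 (Card9 KO MI). All 6 tested rose in WT MI, with a median of 2.86, and between the MI groups all 6 lay below 0, with a median of -0.61 and none called. The erythroid markers, 7 of 8 listed, summed to 878 and 385 (WT Sham), 1554 and 2394 (WT MI) and 1425 and 810 (Card9 KO MI), and the 3 tested rose in WT MI and had a median of -0.83 between the MI groups, with none called. T and B cell markers summed to 4.50 to 8.78. No macrophage, fibroblast, endothelial or cardiomyocyte marker was at 0 in any library. Card9 KO MI replicate 1, the higher of its pair in both classes, also had the higher sum in every marker list but that of cardiomyocytes. The cardiomyocyte sum was 29276 in replicate 1 and 33426 in replicate 2. The part of these cells in the results on replication and mitosis genes was not tested.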

How the data were processed

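Poly(A) RNA of 6 mouse heart samples was sequenced on an Illumina HiSeq. Per the labels, reads were mapped to mm9, with BWA and Bowtie2 named in the submitters' processing notes, and the authors deposited FPKM values by NCBI gene number, rounded to 2 decimals, in 1 file for each library. The annotation and strand setting are not given in the sources used here, so overlapping genes can share reads. Because FPKM is relative to each library's total, a change in a few abundant genes shifts all others.

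Groups and replicate numbers came from the labels. Genes not listed were set to 0. The test was limma 3.58.1 (R 4.3.3; lmFit, eBayes with trend) on log2(FPKM + 1), on 13120 genes (2 or more libraries with FPKM of 1 or above), with the 3 groups in 1 fit without covariates and Benjamini-Hochberg adjustment at 0.05. With 2 libraries a group, an exact permutation test cannot reach 0.05 and none was run. The fit was tried on simulated data of 13120 genes for WT MI against WT Sham. Each gene had its mean over all libraries and a spread smoothed over genes of like level, and changes were added to WT MI. The fit recovered 16 of 50 genes changed 1.5-fold, 40 of 50 changed 2-fold and 49 of 50 changed 4-fold, and called 7 unchanged genes. These changes were made on the log2(FPKM + 1) scale, in genes with a mean above 1 on that scale. Real genes of like level differ in spread, and far more genes were called in the data, so recovery there can differ. Recovery of lower genes was not tested.

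Depth was estimated from the spacing of low FPKM values. With it, 79.6% to 82.1% of low values lay within 0.2 of a whole fragment, so no counts were rebuilt. Levels of 3 fragments cover counting error only. The screen was that of the study's methods (fold of at least 2, probability of at least 0.8), rebuilt in Python 3.11.15 with numpy 2.4.6 and pandas 2.3.3 on the group means. Symbols and promoter windows are RefSeq's on GRCm38.p6, and mm9 positions and exon overlaps come from GENCODE.

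The members, lists and tests were chosen with earlier results of these data known. Named are, per class, the 3 largest and 2 smallest log2 fold changes of WT MI against WT Sham and of Card9 KO MI against WT MI, the most abundant member of each role in WT MI, members against their class, members whose promoter is shown, *Card9*, and of the other lists up to 3 genes and the called brakes. Other genes are named as further examples of their group. Alternatives were other pseudocounts, filters, scalings and fits, the replicate block, the screen, and each library left out. Added after seeing the data were class sums without *Pcna*, *Tyms*, *E2f1* and *Cenpa*. So were results without members that share at least 10% of their exon bases with another gene.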

Additional observations from a re-analysis of the deposited data

How the results depend on the processing

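Main values and their directions held in most settings. Between WT MI and WT Sham, replication genes called higher went from 24 to 14 with a mean FPKM of at least 5, which left 16 of 27 to test, and to 13 by the screen, and mitosis genes from 26 to 16, with 17 of 28 tested, and to 14. The medians of 1.35 and 1.88 became 1.73 and 3.25 with a pseudocount of 0.1, 0.71 and 0.85 with 5, and 1.76 and 2.40 with that filter, and the replication median was 1.03 under quantile normalization. Between Card9 KO MI and WT Sham, replication calls went from 25 to 15 with the filter and 14 by the screen, and mitosis calls from 27 to 17 with the filter. The medians became 2.12 and 3.98 with 0.1, 0.97 and 1.31 with 5, 1.83 and 3.09 with the filter, and 1.20 and 2.28 under quantile normalization. Between the MI groups, 2 mitosis genes (*Foxm1*, *Cdk1*) were called with a pseudocount of 5 and 1 (*Foxm1*) among genes listed in all 6 libraries. Apart from the smaller number of genes tested under the filter, the cause was not tested.

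With each library left out in turn, calls in WT MI against WT Sham were 17 to 24 for replication and 25 to 26 for mitosis, with medians of 1.30 to 1.46 and 1.75 to 2.05. Between the MI groups calls were 0 in each, with medians of 0.15 to 0.44 and 0.52 to 0.79. For Card9 KO MI against WT Sham calls were 23 to 25 and 27 in each, with medians of 1.45 to 1.69 and 2.47 to 2.71.

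Some uncalled genes changed sign. In WT MI against WT Sham, *Tyms* was -0.04 under upper-quartile scaling and under quantile normalization. *Cenpa* was -0.08 and -0.10 there, and -0.02 with scaling to totals that leave out the 100 most abundant genes. In the same order *Cenpf* was -0.06, -0.25 and -0.01, with -0.20 to 0.39 when a library was left out. Between the MI groups under quantile normalization, *Mcm2*, *Pola1* and *Fen1* were each -0.02, *Mcm10* -0.05 and *Cdt1* -0.04. With a library left out, *Mcm2* ran from -0.07 (without WT MI replicate 2) to 0.16, *Mcm3* from -0.06 (without WT MI replicate 1) to 0.25, *Mcm10* from -0.23 (without WT MI replicate 1, with -0.11 for Card9 KO MI replicate 1) to 0.34, *Cdt1* from -0.05 (without Card9 KO MI replicate 2, with -0.02 for WT MI replicate 1) to 0.14, *Rfc3* from -0.10 (without Card9 KO MI replicate 1, with -0.05 for WT MI replicate 1) to 0.33, and *Fen1* down to -0.01 (without Card9 KO MI replicate 1). *Cenpf* was -0.09 in Card9 KO MI against WT Sham under quantile normalization.

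Libraries with the same replicate number had almost no shared deviation from their group means (correlations over genes of 0.00244, -0.00828 and 0.0204). The labels do not say whether the numbers mark a pairing, and these correlations cannot settle it. With the replicate block, calls of replication and mitosis genes were 23 and 26 in WT MI against WT Sham, 0 and 0 between the MI groups, and 25 and 27 in Card9 KO MI against WT Sham, with medians of 1.35 and 1.88, 0.27 and 0.66, and 1.56 and 2.58.

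Over all genes, 107 higher and 77 lower calls between the MI groups became 3 to 200 and 5 to 136 over the settings, with the lowest of them without Card9 KO MI replicate 2 and without the filter on low values. In WT MI against WT Sham 3637 and 1232 became 1024 to 3657 and 153 to 2416, and in Card9 KO MI against WT Sham 4569 and 1875 became 1456 to 4517 and 331 to 3409. Upper-quartile scaling moved the median log2 fold change of all genes in WT MI from 0.19 to 0.00 and quantile normalization to -0.07. Without members that share at least 10% of their exon bases with another gene, an alternative chosen after seeing the data, the medians between the MI groups were 0.27 and 0.66. Depth limits the sham values of low genes most.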
